A study of Rattus norvegicus with 18 samples.

Results

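The expression of 9 genes of plasminogen activation and of the regulation of blood clotting was examined in rat lungs. The genes were *Plau*, *Plaur*, *Plat*, *Serpine2*, *Serpinb2*, *F3*, *Tfpi*, *Thbd*, and *Procr*. They were matched by symbol to the gene names in the deposited tables, and all 9 were found among the 22081 genes listed. The RNA came from the lungs of 18 male F344 rats, in 6 groups of 3 rats, control and MWCNT-treated at Years 0.5, 1, and 2, and every rat was a separate animal. The MWCNT-treated rats had received 0.5 mg/kg of MWNT-7, a multi-walled carbon nanotube (MWCNT) with long straight fibers, suspended in saline with Tween 80 and instilled into the trachea once every 4 weeks from 9 weeks of age. The control rats had received the vehicle by the same schedule. Years 0.5 and 1 correspond to weeks 26 and 52 of the treatment, and Year 2 to its end, so that the cumulative dose and the age of the rats rose together and cannot be told apart within the treated rats. A small piece of the accessory lobe was used, tissue with tumor nodules was left out, and the rest of the lobe was checked by microscope for tumors. The values describe whole lung tissue without recognized tumors and no single cell type. The paper names as a limit that the frozen pieces may have held focal lesions, among them reactive or atypical hyperplasia and early adenomatous changes.

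Plasmin is the protease that dissolves fibrin and also cleaves matrix proteins. It is made from plasminogen by the urokinase-type activator (encoded by *Plau*), which works on cells through its receptor (*Plaur*), and by the tissue-type activator (*Plat*), which works mainly on fibrin. The serpins encoded by *Serpine2* (protease nexin 1) and *Serpinb2* (plasminogen activator inhibitor 2) inhibit the activators, and protease nexin 1 also inhibits thrombin. Clotting is started by tissue factor (*F3*), which binds factor VII, and is restrained at this step by tissue factor pathway inhibitor (*Tfpi*). Thrombomodulin (*Thbd*) and the endothelial protein C receptor (*Procr*) sit on the surface of vessels, where thrombin bound to thrombomodulin activates protein C, an anticoagulant. In lung, fibrin turnover by these genes is known for its part in injury and repair of the alveoli.

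For the genes with an entry among the promoters of RefSeq (assembly GRCr8), the 250 bases before the annotated start were read, and 6 of the 9 genes had an entry. The windows of 4 of them are shown because these genes include 3 whose RNA was higher after treatment and, in *Procr*, 1 whose RNA was lower. Capitals in the windows of *Plau* (chr15:3511988-3512237, minus strand) and *Serpine2* (chr9:88637203-88637452, minus strand) mark the GC box GGGCGG on either strand. Capitals in those of *Plaur* (chr1:89181113-89181362, plus strand) and *Procr* (chr3:164714477-164714726, plus strand) mark the AP-1 motif TGANTCA, which reads the same on both strands.

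Plau: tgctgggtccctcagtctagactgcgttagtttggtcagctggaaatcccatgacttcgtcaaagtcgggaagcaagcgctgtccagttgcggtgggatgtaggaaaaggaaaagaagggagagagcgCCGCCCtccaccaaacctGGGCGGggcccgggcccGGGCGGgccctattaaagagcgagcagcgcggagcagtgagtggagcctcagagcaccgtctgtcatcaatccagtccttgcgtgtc
Serpine2: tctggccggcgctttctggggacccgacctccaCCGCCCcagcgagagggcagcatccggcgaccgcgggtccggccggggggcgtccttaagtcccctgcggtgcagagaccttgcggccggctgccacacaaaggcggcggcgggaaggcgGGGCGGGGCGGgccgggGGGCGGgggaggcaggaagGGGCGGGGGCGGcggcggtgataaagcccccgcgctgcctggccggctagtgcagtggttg
Plaur: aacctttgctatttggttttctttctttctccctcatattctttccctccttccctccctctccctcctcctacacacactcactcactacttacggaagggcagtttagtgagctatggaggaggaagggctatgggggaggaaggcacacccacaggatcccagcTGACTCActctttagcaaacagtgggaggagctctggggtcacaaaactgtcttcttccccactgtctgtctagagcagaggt
Procr: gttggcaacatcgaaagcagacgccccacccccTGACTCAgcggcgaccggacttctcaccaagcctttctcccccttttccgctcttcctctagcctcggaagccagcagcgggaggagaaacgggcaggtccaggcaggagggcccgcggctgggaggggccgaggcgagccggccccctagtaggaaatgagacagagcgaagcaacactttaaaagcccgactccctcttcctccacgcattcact

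The window of *Plau* held 3 GC boxes, which begin 122, 104, and 87 bases before the start, and that of *Serpine2* held 6, of which those at 97 and 92 bases before the start overlap. An AP-1 match stood 83 bases before the start of *Plaur* and 217 bases before that of *Procr*, and the window of *Serpinb2* held another at 189 bases. The GC box was present in 30.5% of the 33469 rat promoter windows of this length, and the AP-1 motif in 6.34%. Of the 2 windows listed for *Tfpi*, 1 held a single GC box. These matches are descriptions of letters in the reference sequence of another strain. Any relation between them and the RNA of these genes was not tested.

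The libraries held between 13297643 and 17868851 counted reads per control rat and between 14661589 and 21130757 per treated rat. Levels are given as the deposited TPM, a unit that accounts for the length of each gene and the size of the library. It so allows levels of different genes to be compared. Fold changes come from the tests, which use TMM scaling, and differ from ratios of mean TPM. With library size only, the median log2 fold change of all genes at Years 0.5, 1, and 2 was -0.12, -0.13, and -0.18. With TMM it was -0.02, 0.00, and -0.01. Differences were tested by time point, on the counts of 6 rats, with the quasi-likelihood test of edgeR, with FDR values adjusted over all 14315, 14345, and 14361 genes tested at Years 0.5, 1, and 2. "Rose" and "fell" mean an FDR below 0.05, and DEG means in addition an absolute log2 fold change above 1.

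Of the 9 genes, 8 had enough counts to be tested. *Plau*, *Plaur*, *Serpine2*, and *F3* rose at all 3 time points and were DEGs each time. *Thbd* and *Tfpi* fell at all 3 time points, *Procr* fell at Years 0.5 and 2, and *Plat* fell at Year 1 alone among the 3 fits, so that 3 of the tested genes fell at each time point. Among all genes tested, the share that rose was 20.2%, 21.6%, and 25.2% at Years 0.5, 1, and 2, and the share that fell was 18.6%, 19.6%, and 24.0%. DEGs that rose made up 6.07%, 6.13%, and 8.17% of all genes tested, against 4 of the 8 genes. DEGs that fell made up 3.03%, 4.09%, and 8.22%, against *Thbd* at Year 2. In CPM, the rats of both treatments did not overlap for the 4 genes that rose, at each time point. Such a separation with higher values in the treated rats was found in 27.1%, 28.5%, and 30.1% of all genes tested. The 9 genes were chosen with earlier results of these data known, so these shares are no test of the genes as a set.

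**Figure D1:**
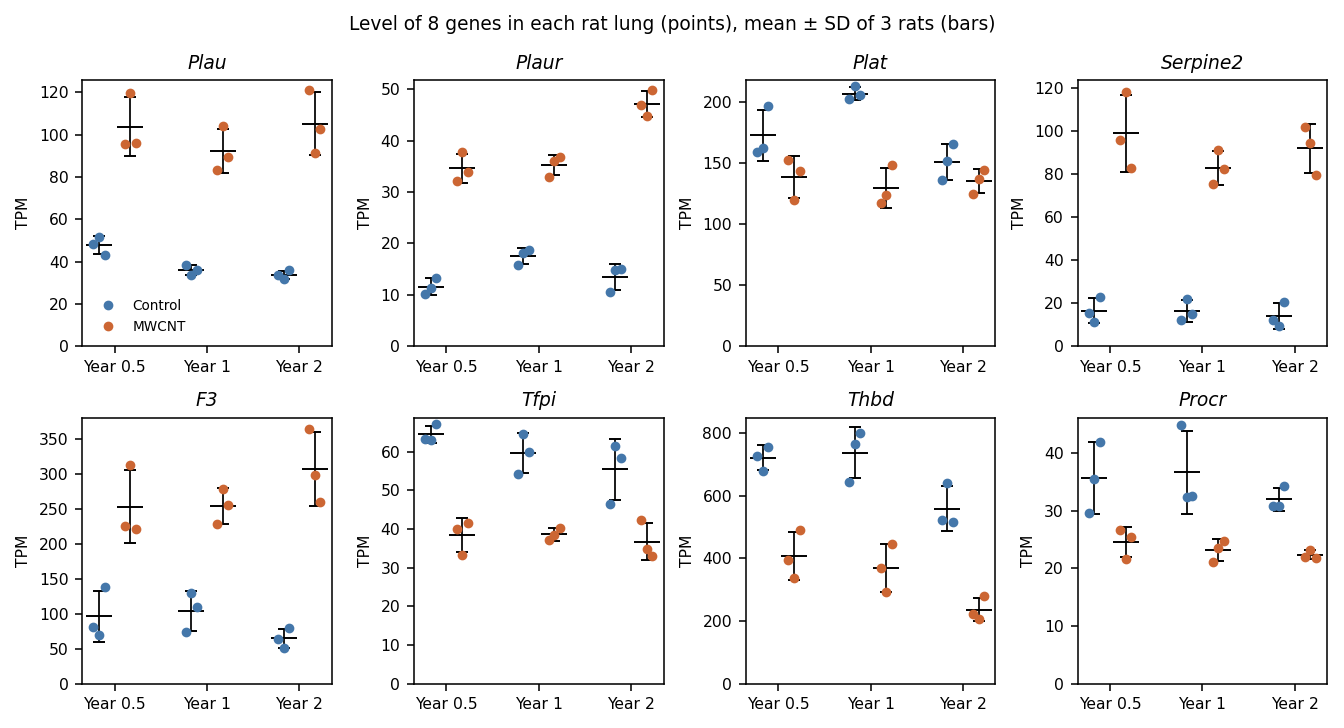
Level in TPM (vertical axes, each from 0) of 8 of the 9 genes in each rat at Years 0.5, 1, and 2, with points for single rats, control in blue and MWCNT-treated in orange, and bars for the mean ± SD of 3 rats. For *Plau*, *Plaur*, *Serpine2*, and *F3* every treated rat lay above every control rat, for *Thbd*, *Tfpi*, and *Procr* below the control rats of the same time point, and the groups of *Plat* overlapped at Year 2. In CPM, the groups of *Tfpi* overlapped at Year 2 and those of *Procr* and *Plat* at Year 0.5 as well.

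*Plau* (ENSRNOG00000010516; Rnor_6.0 chromosome 15, 3644769 to 3650819, minus strand) encodes the urokinase-type activator. In the control rats its TPM was 48.1, 51.8, and 43.3 at Year 0.5, 38.3, 33.8, and 35.9 at Year 1, and 33.5, 32.0, and 35.8 at Year 2. Among treated rats, the values were 95.8, 119.9, and 96.0 at Year 0.5, 83.5, 104.0, and 89.4 at Year 1, and 121.3, 91.6, and 102.7 at Year 2. The lowest treated rat of any time point, at 83.5 TPM, was above the highest control rat, at 51.8 TPM. The mean rose from 47.7 ± 4.28 to 103.9 ± 13.9 TPM at Year 0.5, from 36.0 ± 2.21 to 92.3 ± 10.5 TPM at Year 1, and from 33.8 ± 1.92 to 105.2 ± 15.0 TPM at Year 2 (SD, n = 3). *Plau* rose 2.41-fold, 3.03-fold, and 3.62-fold at the 3 time points. The log2 fold changes were 1.27 (SE 0.12), 1.60 (SE 0.12), and 1.86 (SE 0.12), with edgeR FDR values of 7.30e-05, 2.59e-05, and 4.08e-06.

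*Plaur* (ENSRNOG00000037931; chromosome 1, 81328183 to 81344708, plus strand), the receptor of urokinase, moved in the same direction. Its TPM in the control rats was 10.1, 11.4, and 13.3 at Year 0.5, 15.9, 18.1, and 18.7 at Year 1, and 10.5, 14.9, and 15.0 at Year 2. In the MWCNT-treated rats the TPM was 32.2, 37.8, and 33.9 at Year 0.5, 33.0, 36.0, and 36.8 at Year 1, and 46.9, 44.8, and 49.8 at Year 2. The 3 treated rats of Year 2 were the highest of all 18 rats, and no treated rat overlapped a control rat. The rise was 3.31-fold, 2.36-fold, and 4.08-fold at Years 0.5, 1, and 2. On the log2 scale this was 1.73 (SE 0.14), 1.24 (SE 0.11), and 2.03 (SE 0.14), with edgeR FDR values of 4.49e-05, 7.01e-05, and 4.97e-06.

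*Plat* (ENSRNOG00000019018; chromosome 16, 74098260 to 74122889, minus strand), the tissue-type activator, did not pass as higher at any time point. The control rats had 158.6, 161.9, and 196.6 TPM at Year 0.5, 201.9, 212.4, and 205.1 TPM at Year 1, and 135.5, 151.5, and 165.0 TPM at Year 2. The MWCNT-treated rats had 152.5, 119.6, and 143.4 TPM at Year 0.5, 117.1, 123.2, and 148.0 TPM at Year 1, and 124.2, 136.5, and 143.7 TPM at Year 2. In TPM the separation of the groups was wide only at Year 1, where the control rats were also the highest of the 3 control groups. The groups overlapped at Year 2, and in CPM they overlapped at Year 0.5 too. At Year 1 *Plat* fell by 0.44 on the log2 scale (SE 0.09, edgeR FDR 0.00523). The log2 fold change was -0.17 (SE 0.10, edgeR FDR 0.219) at Year 0.5 and 0.06 (SE 0.08, edgeR FDR 0.566) at Year 2. The small value of Year 2 had no fixed sign, since it was -0.11 with scaling to library totals alone and -0.16 with limma on log2(TPM + 1).

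The ratio of the 2 activator genes within each rat is given as a description with no test. The TPM of *Plau* was 0.281 ± 0.0535, 0.175 ± 0.0151, and 0.225 ± 0.019 times that of *Plat* in the control rats of Years 0.5, 1, and 2 (SD, n = 3). Treated rats had ratios of 0.767 ± 0.206, 0.720 ± 0.12, and 0.787 ± 0.166. The highest ratio in a control rat was 0.320 and the lowest in a treated rat 0.604, so the rats did not overlap, and 1 treated rat of Year 0.5 had nearly the same level of both genes, with 119.9 TPM of *Plau* and 119.6 TPM of *Plat*. Over all time points, the ratio of *Plau* to its receptor *Plaur* overlapped between the treatments, with 1.87 to 4.77 in the control rats and 2.04 to 3.17 in the MWCNT-treated rats. At Year 0.5 this ratio was lower in the treated rats (2.83 to 3.17) than in the control rats (3.25 to 4.77). At Year 1 it was higher in the treated rats (2.43 to 2.89) than in the control rats (1.87 to 2.4), and at Year 2 the groups overlapped.

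*Serpine2* (ENSRNOG00000015461; chromosome 9, 85560863 to 85626094, minus strand), which encodes protease nexin 1, had the largest fold change of the 8 tested genes at each time point. Its TPM was 15.6, 11.1, and 22.7 in the control rats of Year 0.5, 12.1, 21.9, and 14.9 in those of Year 1, and 12.1, 9.23, and 20.7 in those of Year 2. The MWCNT-treated rats had 95.9, 117.9, and 82.7 TPM at Year 0.5, 75.3, 90.9, and 82.1 TPM at Year 1, and 101.8, 94.3, and 79.5 TPM at Year 2. The lowest treated rat, at 75.3 TPM, was more than 3 times as high as the highest control rat, at 22.7 TPM. *Serpine2* rose 6.65-fold, 6.00-fold, and 7.67-fold at Years 0.5, 1, and 2. The log2 fold changes were 2.73 (SE 0.23), 2.59 (SE 0.19), and 2.94 (SE 0.24), with edgeR FDR values of 4.97e-05, 1.98e-05, and 1.56e-05.

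*Serpinb2* (ENSRNOG00000002460; chromosome 13, 27449934 to 27463010, plus strand), the gene of plasminogen activator inhibitor 2, was nearly absent. The counts in the control rats were 0, 0, and 2 at Year 0.5, 0, 0, and 0 at Year 1, and 0, 0, and 1 at Year 2. In the MWCNT-treated rats they were 19, 1, and 4 at Year 0.5, 2, 13, and 1 at Year 1, and 0, 1, and 6 at Year 2. The higher counts stood in single rats, the highest being 19 reads or 1.21 TPM. The gene fell below the minimum count at every time point and was therefore not among the genes tested. When the filter on low counts was omitted, its edgeR FDR was 0.0934, 0.048, and 0.264 at Years 0.5, 1, and 2, so that it passed as higher at Year 1, where all 3 treated rats had reads and no control rat had any. In these unfiltered tests 16.4%, 17.4%, and 20.7% of all genes were called as higher. No fold change is given because most rats had 3 counts or fewer, and a fitted value would depend on the prior count.

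*F3* (ENSRNOG00000011800; chromosome 2, 225310624 to 225322272, plus strand), the gene of tissue factor, rose at all time points. In the control rats its TPM was 81.4, 69.9, and 137.7 at Year 0.5, 73.8, 130.0, and 109.0 at Year 1, and 64.0, 51.4, and 79.1 at Year 2. In the MWCNT-treated rats the level was 224.9, 313.3, and 221.0 TPM at Year 0.5, 227.7, 278.8, and 255.2 TPM at Year 1, and 364.6, 297.7, and 259.3 TPM at Year 2. No treated rat had less than 221.0 TPM and no control rat more than 137.7 TPM. The rise was 2.91-fold, 2.89-fold, and 5.52-fold. The log2 fold changes were 1.54 (SE 0.24), 1.53 (SE 0.18), and 2.46 (SE 0.18), with edgeR FDR values of 0.00122, 0.000272, and 7.66e-06.

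*Tfpi* (ENSRNOG00000005039; chromosome 3, 71852744 to 71893618, minus strand), the inhibitor of the tissue factor pathway, fell while *F3* rose. The control rats had 63.3, 63.1, and 67.0 TPM at Year 0.5, 54.2, 64.6, and 60.0 TPM at Year 1, and 46.4, 61.4, and 58.3 TPM at Year 2. The MWCNT-treated rats had 40.0, 33.3, and 41.6 TPM at Year 0.5, 37.0, 38.5, and 40.2 TPM at Year 1, and 42.2, 34.8, and 33.1 TPM at Year 2. In TPM, all treated rats were below all control rats, whereas in CPM with TMM scaling over all 18 rats the groups of Year 2 overlapped. *Tfpi* was 1.53-fold, 1.31-fold, and 1.29-fold lower at Years 0.5, 1, and 2. The log2 fold changes were -0.61 (SE 0.08), -0.39 (SE 0.08), and -0.37 (SE 0.12), with edgeR FDR values of 0.000496, 0.00494, and 0.0285. The call of Year 2 was lost when control rat 2 or 3 or MWCNT-treated rat 2 or 3 of that year was left out, with edgeR FDR values between 0.0659 and 0.105.

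The TPM ratio of *F3* to *Tfpi*, again without a test, was 1.48 ± 0.504, 1.73 ± 0.335, and 1.19 ± 0.306 in the control rats of Years 0.5, 1, and 2 (SD, n = 3). Treated rats had ratios of 6.79 ± 2.29, 6.58 ± 0.588, and 8.34 ± 0.441. The highest ratio in a control rat was 2.06 and the lowest in a treated rat 5.31. In 1 control rat of Year 2, with a ratio of 0.838, *Tfpi* was the higher of both genes, and in every other rat *F3* was.

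**Figure D2:**
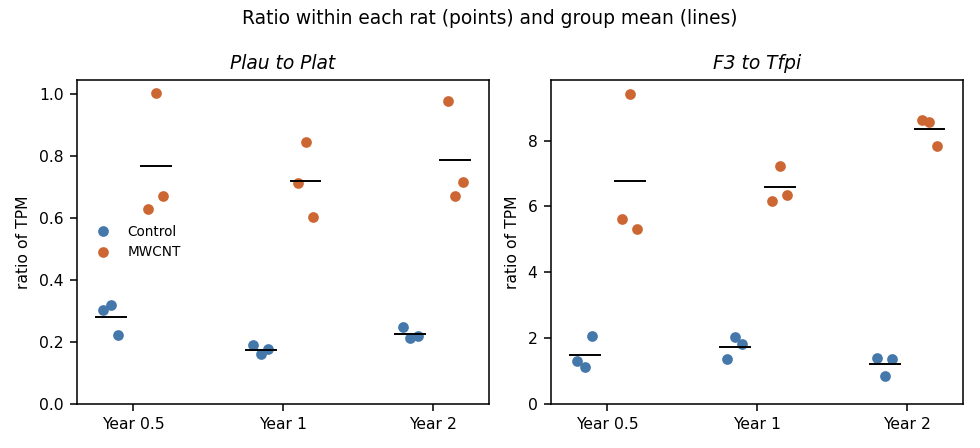
Ratio of the TPM of *Plau* to *Plat* (left) and of *F3* to *Tfpi* (right) within each rat at Years 0.5, 1, and 2, with points for single rats, control in blue and MWCNT-treated in orange, and lines for the mean of 3 rats. Control rats lay between 0.159 and 0.320 (left) and between 0.838 and 2.06 (right), and every treated rat lay above them.

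*Thbd* (ENSRNOG00000004687; chromosome 3, 142748674 to 142752325, minus strand), the gene of thrombomodulin, had the highest level of the 9 genes in all control groups. Its TPM was 726.8, 677.8, and 756.4 at Year 0.5, 644.3, 764.3, and 799.6 at Year 1, and 520.9, 639.7, and 514.9 at Year 2 in the control rats. Among treated rats, the values were 393.2, 337.2, and 488.7 at Year 0.5, 367.3, 291.5, and 445.5 at Year 1, and 222.6, 206.8, and 278.3 at Year 2. Every treated rat was below every control rat, and the treated rats of Year 2 were the lowest of all 18. *Thbd* was 1.61-fold, 1.70-fold, and 2.04-fold lower at Years 0.5, 1, and 2. The log2 fold changes were -0.68 (SE 0.12), -0.77 (SE 0.13), and -1.03 (SE 0.12), with edgeR FDR values of 0.00184, 0.0019, and 0.000153. At Year 2 *Thbd* was a DEG, but its log2 fold change was -0.93, within the fold limit, when control rat 2 or MWCNT-treated rat 2 was left out. With limma on log2(TPM + 1) it was a DEG at Year 1 too, at -1.01.

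*Procr* (ENSRNOG00000019330; chromosome 3, 151285249 to 151289595, plus strand), the receptor of protein C, had lower values in the treated rats, close to the limit of the test. The control rats had 29.5, 35.4, and 41.9 TPM at Year 0.5, 44.9, 32.4, and 32.5 TPM at Year 1, and 30.8, 30.8, and 34.3 TPM at Year 2. The MWCNT-treated rats had 26.6, 21.6, and 25.4 TPM at Year 0.5, 21.0, 23.5, and 24.8 TPM at Year 1, and 21.9, 23.2, and 21.8 TPM at Year 2. In TPM the groups of each time point did not overlap, and in CPM they overlapped at Year 0.5. The log2 fold changes were -0.40 (SE 0.13), -0.43 (SE 0.16), and -0.30 (SE 0.09), with edgeR FDR values of 0.0436, 0.0535, and 0.0225. These calls were not firm. The call of Year 0.5 was lost without any 1 rat of that year other than control rat 1 (edgeR FDR 0.0555 to 0.163), that of Year 2 without any other than control rat 2 (edgeR FDR 0.0566 to 0.0978), and Year 1 passed without control rat 2 (edgeR FDR 0.0492). DESeq2 gave an FDR of 0.0314 at Year 1 and of 0.0663 at Year 2.

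In CPM, the treated rats lay below the control rats without overlap for 2, 4, and 2 of the 8 genes at Years 0.5, 1, and 2, where 24.5%, 26.3%, and 29.8% of all genes tested did so. The TPM ratio of *Thbd* to *Procr* ranged from 14.4 to 24.6 in the control rats. The mean was 16.6 ± 2.38, 16.0 ± 3.08, and 10.6 ± 1.97 in the treated groups of Years 0.5, 1, and 2 (SD, n = 3), and all 3 treated rats of Year 2, at 8.92 to 12.8, were below all control rats. These ratios were not tested.

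**Figure D3:**
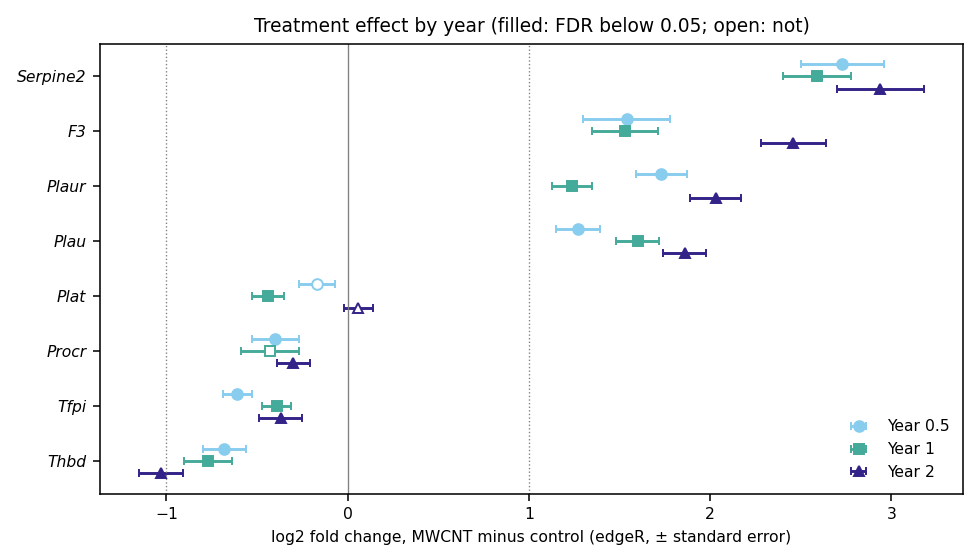
Log2 fold change of MWCNT-treated against control rats (horizontal axis, edgeR, ± standard error) of the 8 tested genes at Year 0.5 (circles), Year 1 (squares), and Year 2 (triangles), filled where the FDR was below 0.05, with dotted lines at the fold limit of a DEG. *Serpine2*, *F3*, *Plaur*, and *Plau* lay between 1.24 and 2.94 at all time points, and *Thbd*, *Tfpi*, and *Procr* between -1.03 and -0.30.

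Whether the treatment effect differed between time points was tested as an interaction in one edgeR model of all 18 rats and 14843 genes. The difference of log2 fold changes between Years 2 and 1 was 0.80 (SE 0.18) for *Plaur*, with an FDR of 0.0529, just above the limit. For *F3* it was 0.95 (SE 0.34, FDR 0.180), and for *Plat* 0.51 (SE 0.14, FDR 0.0878). Between Years 2 and 0.5 the difference was 0.93 (SE 0.34, FDR 0.223) for *F3* and 0.59 (SE 0.19, FDR 0.146) for *Plau*. From Year 0.5 to Year 2, *F3* changed by 0.36 (edgeR FDR 0.346) in the treated rats and by -0.56 (edgeR FDR 0.173) in the control rats. *Plau* changed by 0.10 (edgeR FDR 0.661) and -0.49 (edgeR FDR 0.0415) in the same order. None of the 8 genes passed by edgeR in the interactions of Years 2 and 1, Years 2 and 0.5, and Years 1 and 0.5, or in the joint test. The shares of all genes that passed were 0.478%, 1.31%, 0.0%, and 0.667% in the same order. At an unadjusted p below 0.05 stood *F3*, *Plat*, and *Plaur* for Years 2 and 1, *F3* and *Plau* for Years 2 and 0.5, *Plaur* for Years 1 and 0.5, and *F3*, *Plat*, *Plau*, and *Plaur* jointly. The share of all 14843 genes below this unadjusted p was 16.5%, 13.8%, 8.49%, and 16.0% in the same order. By DESeq2, *Plaur* (FDR 0.00593) and *Plat* (FDR 0.023) passed for Years 2 and 1, where it called 512 genes, or 3.99% of those given an FDR, against 71 genes by edgeR. It called none of the 8 genes for Years 2 and 0.5 or Years 1 and 0.5, where 3.37% and 0.0404% of all genes given an FDR passed. The larger effect on *Plaur* at Year 2 than at Year 1 also passed in edgeR when control rat 3 or MWCNT-treated rat 2 of Year 0.5, control rat 1 or MWCNT-treated rat 2 of Year 1, or control rat 3 of Year 2 was left out (FDR 0.0283 to 0.0471). With any other single rat left out, this difference did not pass. From Year 1 to Year 2, *Plaur* changed by 0.44 (edgeR FDR 0.0364) in the treated rats and by -0.36 (edgeR FDR 0.0945) in the control rats.

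Within the MWCNT-treated rats, *Plaur* was higher at Year 2 than at Year 0.5 by 0.53 on the log2 scale (SE 0.12, edgeR FDR 0.0068) and than at Year 1 by 0.44 (SE 0.12, edgeR FDR 0.0364). *Thbd* was lower at Year 2 than at Year 0.5, with a log2 difference of -0.70 (SE 0.14, edgeR FDR 0.00366), and than at Year 1, with -0.62 (SE 0.14, edgeR FDR 0.0165). Of all genes, 6.65% were higher and 6.87% lower at Year 2 than at Year 0.5, and 2.68% were higher and 3.26% lower than at Year 1. The calls of both differences between Years 2 and 1 were lost in some fits with 1 rat left out. That of *Plaur* was lost without MWCNT-treated rat 3 of Year 0.5, 1 or 3 of Year 1, or any of Year 2 (edgeR FDR 0.0505 to 0.145). The difference was then 0.37 to 0.48. That of *Thbd* was lost without rat 3 of Year 1 or rat 1 or 2 of Year 2 (edgeR FDR 0.0692 to 0.0947), at -0.59 to -0.47. These fits have fewer rats, so a lost call alone does not show that a difference rested on 1 rat. The differences between Years 2 and 0.5 were called with each rat left out in turn.

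Within the control rats, the model called *Plau* and *Plat*. *Plau* was lower at Year 2 than at Year 0.5, with a log2 difference of -0.49 (SE 0.14, edgeR FDR 0.0415), and *Plat* was lower at Year 2 than at Year 1, with -0.43 (SE 0.10, edgeR FDR 0.0175). These directions were shared by 4.0% and 5.0% of all genes. The call of *Plau* was lost without any 1 control rat of Year 0.5, control rat 3 of Year 1, or control rat 1 or 2 of Year 2 (edgeR FDR 0.0546 to 0.148). That of *Plat* was lost without control rat 2 or 3 of Year 1 or 1 or 2 of Year 2 (edgeR FDR 0.0521 to 0.087), and without control rat 1 of Year 1 *F3* also passed as lower at Year 2 than at Year 1 (edgeR FDR 0.045). Between Years 1 and 0.5 none of the 8 genes passed in either treatment by edgeR or DESeq2, where edgeR called 0.0% of all genes in the control rats and 0.101% in the treated rats, and DESeq2 called 0.142% and 0.377%. *Plat*, *Plau*, and *Plaur* of the control rats had an unadjusted p below 0.05 in edgeR, as had 7.01% of all genes, and in the treated rats none of the 8 genes had, against 9.24% of all genes.

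The order of the 9 genes by mean TPM changed with treatment. In all 3 control groups it began with *Thbd* (558.5 to 736.1 TPM), *Plat* (150.7 to 206.5 TPM), *F3* (64.8 to 104.3 TPM), and *Tfpi* (55.4 to 64.5 TPM), and neighbours in this order did not overlap between rats, except *F3* and *Tfpi* at Year 2. *Serpine2* and *Plaur* were the lowest genes above *Serpinb2* in the control groups, and their rats overlapped. In the MWCNT-treated groups of Years 0.5 and 1, *F3* (253.1 and 253.9 TPM) stood second after *Thbd* (406.4 and 368.1 TPM). At Year 2 the mean of *F3* (307.2 TPM) was above that of *Thbd* (235.9 TPM), but rats of these genes overlapped. *Plau* and *Serpine2* followed *Plat* in all treated groups and overlapped each other, and *Procr* was then the lowest gene above *Serpinb2*, at 22.3 to 24.5 TPM.

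The other genes of the pathway were taken from 4 lists of 44 genes in all, of which 32, 32, and 33 were tested at Years 0.5, 1, and 2. Among the tested genes, 16 rose and 7 fell at Year 0.5, 14 rose and 7 fell at Year 1, and 14 rose and 6 fell at Year 2. Of all genes tested, 20.2%, 21.6%, and 25.2% rose and 18.6%, 19.6%, and 24.0% fell at these time points. No list was tested as a set. The median log2 fold change was 0.31, 0.32, and 0.47, beside -0.02, 0.00, and -0.01 for all genes tested. It was 0.55, 0.43, and 0.96 for the 8 tested genes described above.

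Of 12 tested partners of fibrinolysis, 8 rose and 3 fell at Years 0.5 and 1, and 7 rose and 3 fell at Year 2. *Cpb2*, which encodes a carboxypeptidase that removes plasminogen binding sites from fibrin, rose 4.48-fold, 4.37-fold, and 3.74-fold (edgeR FDR 0.00103, 0.000242, and 0.0024), from 0.671 to 1.97 TPM in the control rats to 2.79 to 6.49 TPM in the treated rats. *Serping1*, which encodes the C1 inhibitor of the complement and contact systems, rose 2.13-fold, 2.68-fold, and 5.08-fold (edgeR FDR 0.000699, 0.000133, and 9.67e-07). Its mean was 359.5 to 395.0 TPM in the control groups and 761.7, 890.3, and 1572 TPM in the treated groups of Years 0.5, 1, and 2. The gene of plasminogen itself, *Plg*, had 3 to 16 reads in each rat and was not tested within the time points.

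The genes of coagulation factors moved both ways. Of 10, 10, and 11 tested at Years 0.5, 1, and 2, 4, 2, and 4 rose and 4, 4, and 3 fell, with a median log2 fold change of -0.01, -0.15, and 0.21. Beside these counts, 20.2%, 21.6%, and 25.2% of all genes tested rose and 18.6%, 19.6%, and 24.0% fell. Of 6 tested anticoagulant genes other than *Tfpi*, *Thbd*, and *Procr*, 3, 4, and 3 rose and the others did not pass, with medians of 0.27, 0.41, and 0.55. Of the 4 genes of thrombin and protease receptors, *F2rl1* rose at Year 0.5, with a log2 fold change of 0.94 (SE 0.15, edgeR FDR 0.0013), and had 0.35 (edgeR FDR 0.0726) and 0.45 (edgeR FDR 0.114) at Years 1 and 2. *F2r*, the main thrombin receptor of many cells, had -0.05, -0.18, and 0.17, with edgeR FDR values of 0.55, 0.075, and 0.0694.

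**Figure D4:**
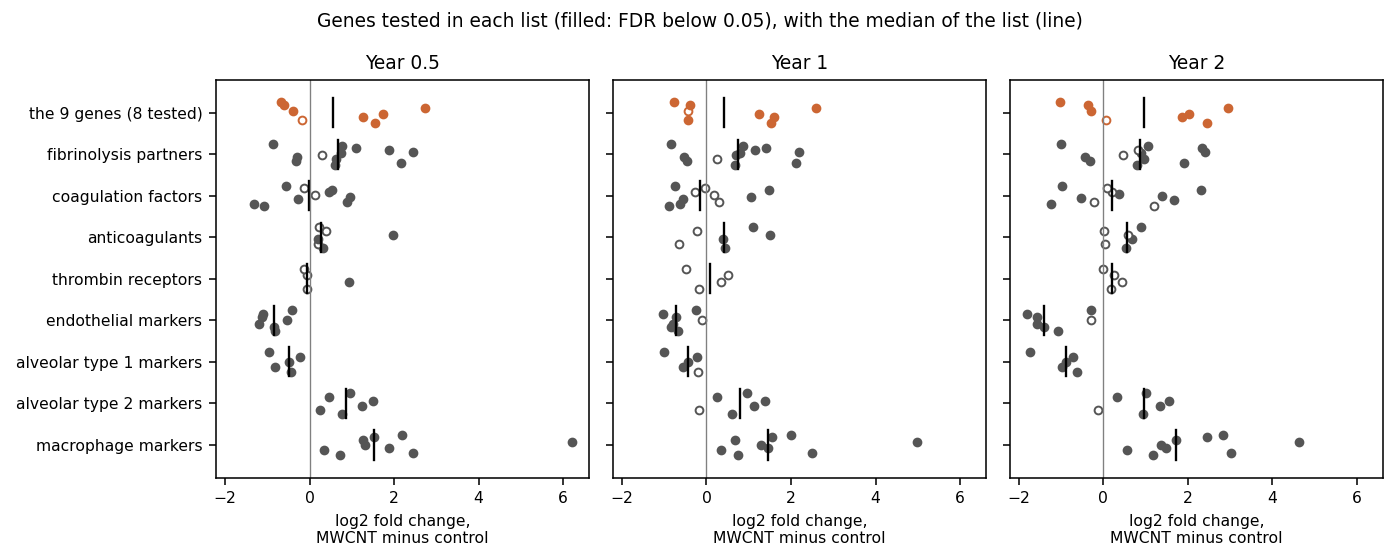
Log2 fold change of MWCNT-treated against control rats (horizontal axes, edgeR) at Years 0.5, 1, and 2, with a point for each tested gene of the 9 genes, the 4 pathway lists, and 4 lists of cell type markers, filled where the FDR was below 0.05, and a vertical line at the median of each list. Endothelial markers had medians of -0.84, -0.73, and -1.41 and macrophage markers of 1.53, 1.45, and 1.73.

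Marker genes of lung cell types moved with the treatment as well. In whole tissue, fewer cells of a type and less RNA per cell cannot be told apart. The label of the tissue fits its markers, since 6 markers of alveolar type 2 cells summed to 26994 to 35560 TPM in the control rats and 3 markers of hepatocytes to at most 2.35 TPM in any rat. Of 8 endothelial markers, 7 were listed in the files, and their summed TPM was 2456 to 3115 in the control rats, 1094 to 1629 in the treated rats of Years 0.5 and 1, and 813.7 to 1171 in those of Year 2. Of these, 7, 6, and 6 fell at Years 0.5, 1, and 2, and none was at 0 in a whole group. *Thbd*, *Tfpi*, and *Procr* were lower too. From Year 0.5 to Year 2 the endothelial median log2 fold change went from -0.84 to -1.41, and that of *Thbd* from -0.68 to -1.03. Over the same span *Tfpi* went from -0.61 to -0.37, *Procr* from -0.40 to -0.30, and *Plat* from -0.17 to 0.06. Of 5 alveolar type 1 markers, 5, 4, and 5 fell, with median log2 fold changes of -0.49, -0.44, and -0.89. All 9 macrophage markers rose at each time point, and their summed TPM was 24222 to 30363 in the control rats and 54990 to 64019 in the treated rats, beside the rise of *Plau*, *Plaur*, *Serpine2*, and *F3*. Nearly all of this sum was *Lyz2* (lysozyme), which alveolar type 2 cells also express and which rose 2.48, 2.46, and 2.56-fold at Years 0.5, 1, and 2. Without *Lyz2* the other 8 markers summed to 302.8 to 382.4 TPM in the control rats and 762.5 to 1107 TPM in the treated rats. The smallest change was that of *Csf1r*, at 1.26, 1.27, and 1.46-fold, and *Marco*, with at most 0.585 TPM in a control rat and at least 2.01 TPM in every treated rat, was too low in the control rats for a fold change. Of 6 alveolar type 2 markers, 6, 5, and 5 rose, beside the rise of the same 4 genes, with median log2 fold changes of 0.86, 0.79, and 0.97. The part of these cell types in the values of the 9 genes was not tested.

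Of the remaining lists, 4 of 4 smooth muscle markers fell at each time point. Of 5 cardiac markers, 5 fell at Year 0.5 and 1 at Year 2, with summed levels of 72.9 to 653.8 TPM in the control rats and 15.6 to 202.2 TPM in the treated rats. Of 4 tested neutrophil markers, 1, 2, and 2 rose, and of 4 tested platelet markers, 1 rose at each time point and 2, 3, and 2 fell. Of 6 fibroblast markers, 2, 1, and 2 rose and 3 fell each time, and of 4 mesothelial markers, 3 rose at Year 1, and 1 rose and 1 fell at Year 2.

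As a description over all 18 rats, with treatment and library shared by the points, the genes most like each of the 8 were sought by the Pearson correlation of log2 CPM among 14107 genes. *Serpine2* was most like *Spp1* (r = 0.99), which encodes osteopontin, and *Pip5k1b* (r = 0.988), and *F3* was like *Galnt5* (r = 0.988). *Plaur* was most like *Mfsd11* (r = 0.986) and *Slc11a1* (r = 0.985), a metal transporter of phagocytes, and *Plau* most like *Vwa5a* (r = 0.983) and *Vac14* (r = 0.981). For *Thbd* the closest genes were *Tp53bp2* (r = 0.986) and *Gnai1* (r = 0.984), and for *Tfpi* *Simc1* (r = 0.934) and *Pcmtd2* (r = 0.897). *Plat* (*Mgat3*, r = 0.879, and *Pard3b*, r = 0.838) and *Procr* (*Plxdc1*, r = 0.879, and *Glb1l2*, r = 0.872) had no gene above 0.9.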

How the data were processed

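RNA-seq of 18 rat lungs was analysed, with groups taken from the sample labels. The authors mapped the reads with CLC Genomics Workbench 22.0.2 to the rat genome (Rnor 6.0 in the submitters' processing notes) and deposited the count of reads per gene without normalization. The authors also deposited TPM, which was used for levels, TMM-adjusted CPM (a normalized signal), and RPKM, and the last 2 were not used. Columns of the authors' own comparisons hold fold changes and p-values and were not used. The handling of strand and of reads that map to several places is not given in the sources used here.

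The counts were tested in R 4.3.3 with edgeR 4.0.16 (filterByExpr with a minimum count of 10 and total of 15, TMM, quasi-likelihood test, Benjamini-Hochberg FDR over all genes tested), on the 6 rats of each time point and, for time, on all 18 rats. Standard errors were the log2 fold change divided by the square root of F. The scripts were tested on simulated data. Alternatives were the filter (none, or at least 10 counts in every rat), the scaling (library size only, or upper quartile), the tool (DESeq2 1.42.0, or limma 3.58.1 on log2 TPM with a pseudocount of 1 or 0.1), and the design (all rats in one model, a block for the replicate number, or 1 rat left out). Log2 CPM for overlap and likeness was computed from the counts, with TMM over all 18 rats and a prior count of 2. Correlations and tables were made in Python 3.11.15.

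The 9 genes and the gene lists were chosen with earlier results of these data known. Named in addition were *Plg*, *F2r*, and *F2rl1*, up to 4 genes per pathway list that were DEGs in one direction at all time points with a mean of at least 1 TPM in some group, and the 2 genes most like each of the 9, and a few genes that this rule names are not reported here. Total counts of 13297643 to 21130757 and 3 rats per group set the precision.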

Additional observations from a re-analysis of the deposited data

How the results depend on the processing

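The calls of *Plau*, *Plaur*, *Serpine2*, *F3*, and *Thbd* at each time point, of *Tfpi* at Years 0.5 and 1, and of *Plat* at Year 1 passed the FDR limit under every alternative and with each rat left out. Of the values of single genes under the alternatives other than left-out rats, 201 kept their direction and side of the limit, 7 came to pass, 5 no longer passed, and 3 changed sign. With 1 rat left out, 129 kept both, 1 came to pass, and 14 no longer passed. These values are of the 8 genes above the minimum count. Without that filter *Serpinb2* also passed at Year 1 (edgeR FDR 0.048), making 5 genes that rose in place of 4. The 3 changes of sign were *Plat* at Year 2, at -0.11 with library size only and at -0.16 with limma on log2 TPM at either pseudocount (1 or 0.1). Of the genes that fell, 1 was a DEG at Year 1 with limma on log2 TPM at either pseudocount (1 or 0.1). The interaction of Years 2 and 1 had 1 gene with at least 10 counts in every rat and 2 with DESeq2. The control rats of Years 2 and 0.5 differed in 0 genes with upper quartile normalization, against *Plau* in edgeR with TMM. The MWCNT-treated rats of Years 2 and 1 differed in 1 gene without a filter and 1 with limma on log2(TPM + 1). The causes of these changes were not tested. With a single rat left out, 2 to 3, 3 to 4, and 1 to 2 genes fell at Years 0.5, 1, and 2, and 0 to 1 was a DEG that fell at Year 2. The interaction of Years 2 and 1 then had 0 to 1 genes, the control rats 0 to 1 (Years 2 and 0.5) and 0 to 2 (Years 2 and 1), and the MWCNT-treated rats of Years 2 and 1 had 0 to 2. *Plaur* at Year 1 was 0.97 with limma on log2(TPM + 1), under the fold limit. With library size only, the median log2 fold change of all genes moved from -0.02, 0.00, and -0.01 to -0.12, -0.13, and -0.18, and the share of DEGs that were higher from 66.7%, 60.0%, and 49.9% to 54.2%, 45.2%, and 37.5%.

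The labels repeat replicate numbers 1 to 3 in each group, but the rats were separate animals and the numbers pair none. Deviations from the group means correlated at 0.007 on average between rats of the same number (9 pairs, -0.147 to 0.107) and at -0.00326 between other rats. With the replicate number as a block, 1 gene fell at Year 2 (*Tfpi* at FDR 0.0639 and *Procr* at 0.0581 did not pass), *Procr* at Year 0.5 had an FDR of 0.0545, the interaction of Years 2 and 1 had 1 gene, and the control rats of Years 2 and 0.5 differed in 0 genes.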

Other observations

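Pairs of the 8 tested genes were compared over the 9 rats of each treatment in log2 CPM. This gave 56 relations over both treatments together, and none passed an adjustment over the 56. *Serpine2* and *F3* in the control rats had Pearson r = 0.84 (exact permutation p = 0.00496, adjusted 0.133) and Spearman rho = 0.883 (exact permutation p = 0.00308, adjusted 0.151). Leaving out the 2 rats whose *Serpine2* was farthest from its median, r was 0.651, and with the means of each time point removed it was 0.913. *Plau* and *F3* in the MWCNT-treated rats had r = 0.82 (exact permutation p = 0.00714, adjusted 0.133) and rho = 0.733 (exact permutation p = 0.0311, adjusted 0.218), with r = 0.568 without the 2 farthest rats and 0.883 with the means of each time point removed. *Plaur* and *Thbd* in the MWCNT-treated rats had r = -0.83 (exact permutation p = 0.00696, adjusted 0.133) and rho = -0.85 (exact permutation p = 0.00607, adjusted 0.151). Their r was -0.843 without the 2 farthest rats and -0.21 with the means of each time point removed. The permutations exchanged rats across time points. Their p-values therefore cannot separate a relation within time points from a shift shared between them.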
